A study of Mus musculus with 4 samples.

Results

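The subject is the transcriptome of normal lineage-depleted bone marrow: the RNA-seq libraries WT 1 and WT 2, which are 2 of the 4 libraries in the series. Both carry the labels wild type and C57BL/6, with no treatment named. Whether a library holds 1 animal or several pooled ones, and the age and sex of the animals, are not given in the sources used here. Cells came from femurs, tibias and hips, red cells were destroyed with ammonium chloride, and a magnetic kit took away cells with mature lineage antigens before RNA was isolated. The other libraries come from Cyba -/- animals of the same strain and are not described here. All 22520 genes of the deposited tables were taken. Estimated reads could be settled for 22055 of them and TPM values (a transcript level scaled for gene length and library size) for 18986, because many deposited numbers had lost their decimal point. Levels, sums and ranks below are TPM over those 18986 genes, the mean of 4 sequencing lanes of 1 library. For a gene whose TPM was not settled, reads or CPM (reads scaled to library size, not length) are given instead. The settled genes held 23730832 reads in WT 1 and 22438927 in WT 2. The 2 libraries are replicates of 1 group, so there is no contrast to test and no p-value. SD is over the 2 libraries and may be biological or technical, and a difference between them is counted at 2-fold in place of a test.

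Bone marrow makes all blood cells from rare stem cells, which pass through multipotent progenitors and then through progenitors committed to granulocytes and monocytes, to red cells and platelets, or to lymphocytes. Each branch is set up by its own transcription factors, such as Gata1 and Klf1 for red cells and Spi1 and Cebpa for granulocytes and monocytes. Lineage depletion uses antibodies to surface antigens of mature cells, so the fraction that stays is enriched in stem and progenitor cells but remains a mixture. In such a mixture, fewer cells of a type and less RNA per cell cannot be told apart.

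Every one of the 8 marker genes examined first was well above the detection level of 1 TPM in both libraries, and their levels spanned from the granule enzyme Mpo down to the receptor Kit and the factor Gata1. Mpo, which encodes myeloperoxidase of the primary granules, had 3716 TPM in WT 1 and 1903 TPM in WT 2, with a mean of 2809.6 ± 1282 TPM (SD, n = 2) and rank 43 of all settled genes. Elane, which encodes neutrophil elastase of the same granules, had 1443 TPM in WT 1 and 713 in WT 2 and ranked 145. Both granule genes were higher in WT 1, by 0.96 and 1.02 on the log2(TPM + 1) scale. Pf4, the platelet chemokine made by megakaryocytes, had 501 TPM in WT 1 and 463 in WT 2 and ranked 289. The SD of Pf4 between libraries, 27.2 TPM, was below its SD between lanes, 51.3 TPM in WT 1 and 39.2 TPM in WT 2.

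The proliferation marker Mki67 had 91.3 TPM in WT 1 and 139.7 in WT 2, with rank 1118. The erythroid factors were also lower in WT 1: Klf1 had 62.3 TPM in WT 1 and 138 in WT 2, and Gata1 had 50.9 TPM in WT 1 and 106 in WT 2, so both were more than 2-fold lower in WT 1 (log2 differences -1.14 and -1.05). Over all 10614 genes with at least 40 reads, 446 (4.2%) differed at least 2-fold between the libraries. Of these, 271 were higher in WT 1 (2.55% of all 10614) and 175 lower in WT 1 (1.65%). By any amount, 45.0% of the 10614 genes were higher in WT 1. Among the progenitor surface markers, Kit, the receptor for stem cell factor, had 73.1 TPM in WT 1 and 87.6 in WT 2, the closest pair of values after Pf4. Cd34, a sialomucin of early progenitors, had 102 TPM in WT 1 and 62.6 in WT 2. Over both libraries Mki67, Klf1, Cd34, Kit and Gata1 averaged between 78.6 and 116 TPM, and all pairs of these 5 genes overlapped in range except Mki67 and Kit, so the rest of their order does not exceed the spread between libraries. The order Mpo, Elane, Pf4 and then the other markers held in each library.

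**Figure D1:**
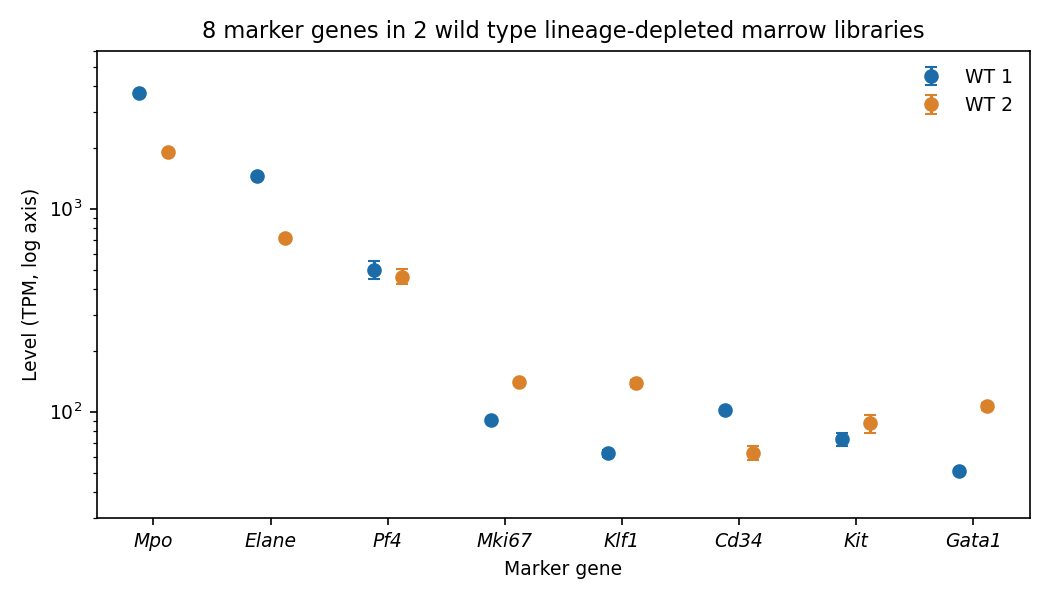
Levels of the 8 marker genes in TPM on a log axis, with WT 1 left of WT 2 for each gene and bars for the SD of 4 lanes of that library. Mpo lies highest in both libraries, at 3716 TPM in WT 1 and 1903 TPM in WT 2, and Gata1 and Klf1 lie lower in WT 1 than in WT 2.

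The genes lie apart in the genome (GENCODE vM21, build GRCm38): Mpo on chromosome 11 from 87793581 to 87804413, Elane on chromosome 10 from 79886247 to 79888215, Klf1 on chromosome 8 from 84901928 to 84905291 and Pf4 on chromosome 5 from 90772435 to 90773383. To show the sequence just upstream of a gene of the granulocyte, red cell and platelet branches, 150 bases before the start of Elane, Klf1 and Pf4 are given 5′ to 3′ on the gene's strand, from RefSeq's promoter windows on build GRCm38.p6, ending before the first annotated exon base. All 8 markers matched a RefSeq window, but those of Mpo and Gata1 held too few bases upstream of both annotations' starts to be searched. Capitals mark the letters GATAA (the GATA core), TTNNGNAA (the C/EBP half-sites) or GAGGAA (part of the PU.1 site), searched on both strands, and CCNCNCCC (the CACCC box of Klf factors) was searched as well.
Elane chr10:79886097-79886246 plus strand: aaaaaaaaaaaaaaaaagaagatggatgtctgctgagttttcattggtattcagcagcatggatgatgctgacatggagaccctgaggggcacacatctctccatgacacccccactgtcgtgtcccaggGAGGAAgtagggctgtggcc
Klf1 chr8:84901778-84901927 plus strand: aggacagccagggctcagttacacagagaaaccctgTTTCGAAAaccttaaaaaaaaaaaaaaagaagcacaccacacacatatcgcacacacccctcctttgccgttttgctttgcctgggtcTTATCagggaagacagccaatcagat
Pf4 chr5:90772285-90772434 plus strand: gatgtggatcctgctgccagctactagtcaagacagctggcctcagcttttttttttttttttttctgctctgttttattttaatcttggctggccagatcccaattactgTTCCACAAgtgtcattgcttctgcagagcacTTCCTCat
The Elane stretch held 1 GAGGAA match, the Klf1 stretch 1 GATAA and 1 TTNNGNAA match, and the Pf4 stretch 1 TTNNGNAA and 1 GAGGAA match, and none of the 3 held CCNCNCCC. No matches overlapped in these stretches. Kit, Cd34 and Mki67 were searched as well but are not shown. None of them held GATAA, TTNNGNAA or GAGGAA, and only Kit held CCNCNCCC, with 2 matches. These letters are common: of 32851 RefSeq windows of the same length directly before a start, 13.3% held GATAA, 22.7% TTNNGNAA, 14.5% GAGGAA and 38.1% CCNCNCCC. A match is a description of the letters and says nothing of binding.

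Taking all genes, 9566 reached 1 TPM in both libraries, 9870 in WT 1 and 9748 in WT 2. Of these, 6762 reached 10 TPM in both, 1122 reached 100 TPM and 130 reached 1000 TPM, while 1357 genes had 0 reads in both libraries. A few genes carried much of the RNA: the 10 highest genes of a library held 15.8% of the summed TPM in WT 1 and 16.3% in WT 2, and the 100 highest held 40.97% and 41.4% in WT 1 and WT 2. The 1000 highest held 74.4% in WT 1 and 73.9% in WT 2, and 866 of these genes were the same in both libraries. Across the genes detected in both libraries the levels had a Spearman correlation of 0.966. It is a description across genes of libraries that share strain and protocol and have similar depth. Their values were also repaired partly by agreement with each other.

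Protein-coding genes outside the special classes took 51.3% of the TPM in WT 1 and 53.4% in WT 2. Ribosomal protein genes took 14.3% in WT 1 and 16.7% in WT 2, and the 13 mitochondrially encoded genes took 10.01% and 12.1% in WT 1 and WT 2. Pseudogenes took 13.2% of the TPM in WT 1 and 15.1% in WT 2, but only 2.45% and 2.78% of the reads in the same order. The highest of them are short, and as copies of other genes they may share reads with those, so their TPM is uncertain. Immunoglobulin genes were the class that set the libraries apart, with 11.01% of the TPM in WT 1 and 2.27% in WT 2. In reads this was 2.807% in WT 1 (Wilson 95% interval 2.801% to 2.814%) and 0.551% in WT 2 (0.548% to 0.554%), where the intervals cover counting error only.

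**Figure D2:**
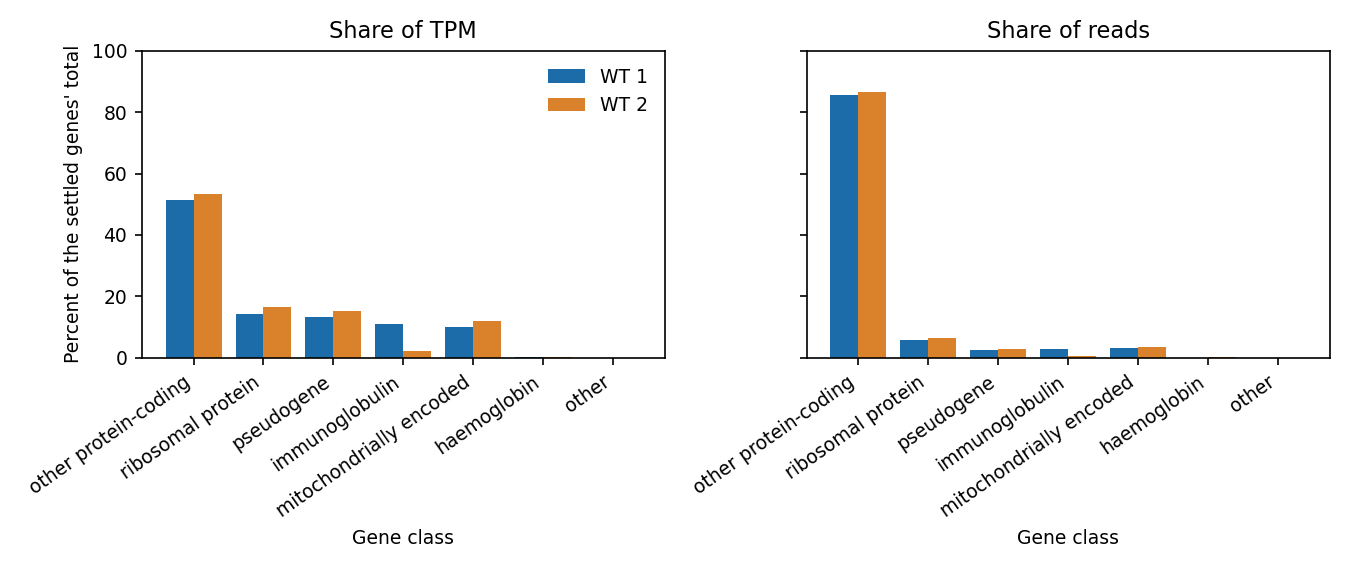
Share of the settled genes' TPM (left) and reads (right) in each gene class, in percent, with WT 1 left of WT 2. Pseudogenes and mitochondrially encoded genes take a larger share of TPM than of reads, and immunoglobulin genes take 11.01% of TPM in WT 1 and 2.27% in WT 2.

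The gene with the highest level was mt-Atp8, a subunit of the mitochondrial ATP synthase, with 51988 TPM in WT 1 and 68278 in WT 2; its coding sequence overlaps that of mt-Atp6, and it is only 204 bases long, so its TPM leans on the estimated length. The processed pseudogenes Gm14303 (171 exonic bases) and Gm10443 (210) ranked 2 and 4, and the unprocessed pseudogene Gm29216 ranked 7. Igkc, the constant region of the kappa light chain, ranked 3 with 21338 TPM in WT 1 and 3829 in WT 2, and Igkv5-39, a kappa variable segment, ranked 12 with 11915 TPM in WT 1 and 307 in WT 2. The translation factor Eef1a1 (9587 TPM in WT 1 and 10691 in WT 2) and Rps15a of the small ribosomal subunit (8058 TPM in WT 1 and 10900.3 in WT 2) followed Igkc among nuclear protein-coding genes. Both ranked above Igkv5-39 by mean level. The other genes of the 20 highest were mt-Co1, mt-Co2 and mt-Co3 of cytochrome oxidase, mt-Atp6, mt-Nd4l, the ribosomal protein genes Rplp1, Rpsa, Rpl6 and Rps24, the copies Rpl37rt and Rpl38-ps2, and Hspa8, a constitutive heat shock chaperone. Without genes under 500 exonic bases, an alternative chosen after seeing the data, the highest genes were Igkc, Eef1a1, Rps15a and mt-Co2.

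Outside the mitochondrially encoded, ribosomal protein, immunoglobulin and haemoglobin classes, only Mpo and Prtn3 of the 20 highest protein-coding genes are granule genes; the others are used by most cells. Eef1a1 led, and Hspa8, the cyclophilin Ppia (3275 TPM in WT 1 and 3579.6 in WT 2) and Mpo were among the next. Ptma, Hsp90aa1, Actb, Tpt1, Gapdh, Npm1, Hnrnph1, Atp5b, Rack1, Hnrnpk, Hsp90ab1, Fth1 and Tmsb4x averaged between 1304 and 2544 TPM. Of these, Fth1, the ferritin heavy chain, differed most between the libraries, with 995 TPM in WT 1 and 1719.7 in WT 2. Prtn3, proteinase 3 of primary granules, had 1813 TPM in WT 1 and 917 in WT 2. The 12 housekeeping genes listed held 24058 TPM in WT 1 and 24431 TPM in WT 2 in sum, and none of them differed 2-fold.

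Genes of granulocyte-monocyte progenitors formed, on average over both libraries, the strongest lineage programme after the antibody genes. All 21 members were detected in both libraries and 12 averaged at least 100 TPM, and their sum was 13132 TPM in WT 1 and 7051 TPM in WT 2. After Mpo, the highest members were Prtn3, Plac8 (1474 TPM in WT 1 and 935 in WT 2), Elane, the surface antigen gene Ly6c2 (1286 TPM in WT 1 and 776 in WT 2) and Ctsg, cathepsin G of the primary granules (1028 TPM in WT 1 and 479 in WT 2). All 21 were higher in WT 1, with a median log2 difference of 0.79 against -0.04 over all 10614 genes with at least 40 reads, and 6 passed 2-fold. The background in that direction was 2.55%.

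Genes of maturing neutrophils, which are made later in the same branch, ran the other way. Their sum over 19 settled members was 1433 TPM in WT 1 and 3219 TPM in WT 2. The calcium-binding proteins S100a9 (419 TPM in WT 1 and 1236 in WT 2) and S100a8 (432 TPM in WT 1 and 779 in WT 2) led, followed by lysozyme Lyz2, which was level between the libraries (237 TPM in WT 1 and 236 in WT 2). The secondary granule genes Ngp (64.3 TPM in WT 1 and 225 in WT 2), Ltf, lactoferrin (40.5 TPM in WT 1 and 235 in WT 2), and Camp, cathelicidin (38.7 TPM in WT 1 and 112 in WT 2), were all more than 2-fold lower in WT 1. Of the 19, 14 were lower in WT 1, against 5838 of all 10614 genes. In that direction 9 passed 2-fold, against 1.65% of all genes, and the median log2 difference was -0.86. Ly6g, the defining surface antigen of mature neutrophils and a target of the depletion, had 18 reads in WT 1 and 90 in WT 2. The summed level of the progenitor list was 9.16 times that of the maturing neutrophil list in WT 1 and 2.19 times in WT 2.

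Monocyte genes were present at moderate levels, with a sum of 636 TPM in WT 1 and 487 TPM in WT 2 over 11 members, 10 of them detected in both libraries. The highest were S100a4 (128 TPM in WT 1 and 125 in WT 2), the transglutaminase gene F13a1 (153 TPM in WT 1 and 99.7 in WT 2), Ms4a6c (120.5 TPM in WT 1 and 95.3 in WT 2), Ly86, the chemokine receptor Ccr2 (44.7 TPM in WT 1 and 35.99 in WT 2) and the factor Klf4. Of the exonic bases, 51.7% in S100a4 and 53.1% in Ms4a6c are also covered by exons of another gene, so their reads are less certain. Dendritic cell lists were low: the conventional list summed to 250.3 TPM in WT 1 and 95.1 TPM in WT 2, led by Cd74, the invariant chain of MHC class II (135 TPM in WT 1 and 38.8 in WT 2), H2-Ab1, H2-Aa and H2-Eb1, which B cells also make. The remaining members of its 6 highest, Cd209a and Clec9a, averaged 8.79 and 7.85 TPM. The plasmacytoid list summed to 154 TPM in WT 1 and 123 TPM in WT 2, led by Bst2 (82.5 TPM in WT 1 and 71.7 in WT 2), Tcf4 (22.4 TPM in WT 1 and 18.4 in WT 2), Ly6d and Irf7, with Cd300c and Siglech below 10 TPM.

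Granule genes of the rarer granulocytes were high as well. Prg2, major basic protein of eosinophils, had 616 TPM in WT 1 and 369 in WT 2 and ranked 286, and the eosinophil list summed to 913 TPM in WT 1 and 545 TPM in WT 2, with Epx (70.1 TPM in WT 1 and 34.9 in WT 2), the ribonucleases Ear1, Ear6 and Ear2 and Prg3 as its next members. Of the 8 settled members of the eosinophil list, 6 were detected in both libraries. The Ear genes are close paralogues, so their reads may be split between them. Of the basophil and mast cell list, the basophil proteases Prss34 (618 TPM in WT 1 and 206 in WT 2) and Mcpt8 (529 TPM in WT 1 and 201 in WT 2) led, followed by Cpa3, the histidine decarboxylase gene Hdc, Fcer1a and Ms4a2, the high-affinity IgE receptor chains. The sum was 1452 TPM in WT 1 and 533 TPM in WT 2. All 7 members with enough reads were higher in WT 1, against 45.0% of all genes, and 5 passed 2-fold, against 2.55%. Genes of tissue mast cells, named after their values were seen, were at the floor: Mcpt4 had 0 reads in WT 1 and 1 in WT 2, Cma1 3 reads in WT 1 and 1 in WT 2 and Tpsb2 1 read in WT 1 and 2 in WT 2.

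The erythroid programme was the highest of the lineage lists in WT 2 and the third in WT 1, and nearly all of it was lower in WT 1. All 38 settled members were detected in both libraries, 17 averaged at least 100 TPM, and their sum was 4915 TPM in WT 1 and 10657 TPM in WT 2. Carbonic anhydrase Car1, an early erythroid enzyme, led with 617 TPM in WT 1 and 1506 in WT 2, followed by the alpha globin genes Hba-a1 (563 TPM in WT 1 and 1165 in WT 2) and Hba-a2 (468 TPM in WT 1 and 1224 in WT 2). Car2, another carbonic anhydrase, had 474 TPM in WT 1 and 1113 in WT 2, and the adult beta globin gene Hbb-bs 442 TPM in WT 1 and 889.9 in WT 2. The 2 alpha globin genes are near-identical, so only their sum is certain. Of the 38 members, 37 were lower in WT 1, against 5838 of all 10614 genes. By at least 2-fold, 24 of them were lower (1.65% of all genes), and the median log2 difference was -1.05. The single member higher in WT 1 was Nfe2, a factor that megakaryocytes also use. Macrophage genes, described below, were lower in WT 1 as well, and their part in these values was not tested.

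Among enzymes of haem synthesis, named after their values were seen, the mean level was 16.9 ± 6.63 TPM for Alas2, the erythroid first enzyme, and 116 ± 55.6 TPM for Alad. It was 46.4 ± 20.01 TPM for Uros, 218 ± 117 for Urod, 89.2 ± 40.03 for Cpox, 67.04 ± 19.7 for Ppox and 49.9 ± 22.3 for Fech (SD, n = 2 each). Alas2 was the lowest of these in both libraries. Alas2 and the haemoglobins are made most in later erythroblasts. Haemoglobin genes together took 0.167% of the TPM in WT 1 and 0.369% in WT 2, and the embryonic genes Hbb-y, Hbb-bh1 and Hba-x had at most 1 read in each library.

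Megakaryocyte and platelet genes were nearly level between the libraries, with a sum of 861 TPM in WT 1 and 815 TPM in WT 2 over 17 settled members, all detected in both. Pf4 made up most of it. The next were Itga2b, the platelet integrin subunit also found on early progenitors (110.4 TPM in WT 1 and 71.8 in WT 2), the platelet basic protein gene Ppbp (52.5 TPM in WT 1 and 90.9 in WT 2), Plek (45.1 TPM in WT 1 and 38.03 in WT 2), Gp9 and Thbs1. Of the 17 members, 10 were higher in WT 1 and 7 lower, and none passed 2-fold. The erythroid list summed to 5.71 times the megakaryocyte list in WT 1 and 13.1 times in WT 2. The granulocyte-monocyte progenitor list summed to 2.67 times the erythroid list in WT 1 and 0.662 times in WT 2, so which of these programmes was the stronger differed between the libraries.

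**Figure D3:**
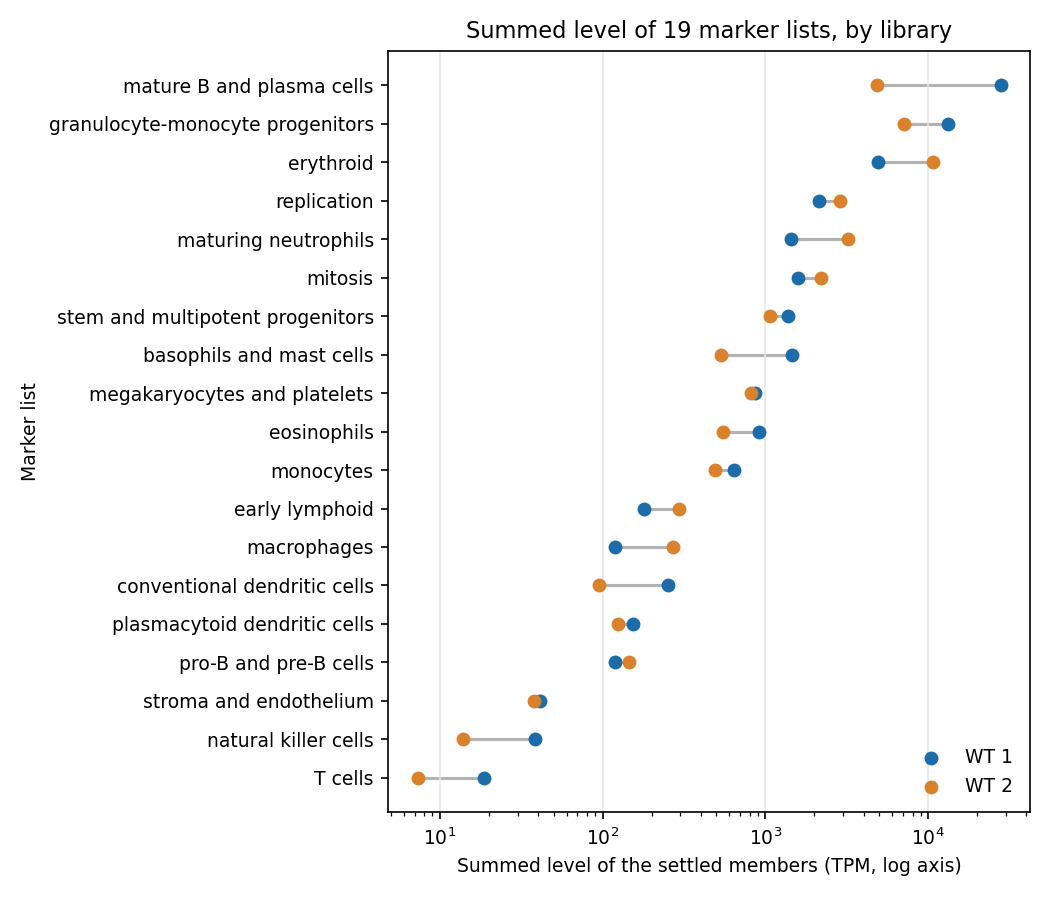
Summed level of the settled members of 19 marker lists in TPM on a log axis, with a grey line joining WT 1 and WT 2. Mature B and plasma cell genes lie highest in WT 1, at 27814 TPM, and erythroid genes highest in WT 2, at 10657 TPM.

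Stem and multipotent progenitor genes were present but mostly of middle or low level, with a sum of 1369.6 TPM in WT 1 and 1068 TPM in WT 2 over 33 settled members, 27 of them detected in both libraries. The highest were Lmo2 and Myb, factors that many progenitors use, then Cd34, the SLAM family receptor Cd48 (94.02 TPM in WT 1 and 67.1 in WT 2), Kit and Gata2. Cd48 is absent from the most primitive stem cells and present on multipotent progenitors. Other members ranged widely. Procr, a surface marker of long-term stem cells, had 1.08 TPM in WT 1 and 0.627 in WT 2, Slamf1, the CD150 gene, 1.502 TPM in WT 1 and 2.08 in WT 2, and Hoxb5 0.0699 TPM in WT 1 and 0.109 in WT 2. Ly6a, the Sca-1 gene, had 34.4 TPM in WT 1 and 7.98 in WT 2, and was more than 2-fold higher in WT 1. Procr, Slamf1, Hoxb5 and Ly6a lie below the 6 highest members and were named after their values were seen. The reads of Mecom, a factor that stem cells need, were 134 reads in WT 1 and 57 in WT 2, and those of Hlf 549 reads in WT 1 and 256 in WT 2. Of the 28 members with enough reads, 22 were higher in WT 1, against 45.0% of all genes, and 6 lower. Ly6a and the growth-induced factor Egr1 were the 2 that passed 2-fold, against 2.55% of all genes.

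Lineage transcription factors spanned a wide range of levels: the 30 with settled TPM lay between 0.511 TPM for Tbx21 and 269 TPM for Lmo2, and 29 were detected in both libraries. Among the shared stem and progenitor factors, Lmo2, a bridging partner of Tal1, averaged 269 ± 43.9 TPM (SD, n = 2) and was lower in WT 1 (log2 difference -0.33), and Myb had 304 TPM in WT 1 and 169 in WT 2. Tal1 had 35.7 TPM in WT 1 and 55.2 in WT 2, its relative Lyl1 69.2 TPM in WT 1 and 53.5 in WT 2, Runx1 41.4 TPM in WT 1 and 31.2 in WT 2, Fli1 22.2 TPM in WT 1 and 12.6 in WT 2 and Erg 18.8 TPM in WT 1 and 12.8 in WT 2. Hoxa9 (15.4 TPM in WT 1 and 9.26 in WT 2), its cofactor Meis1 (12.4 TPM in WT 1 and 6.99 in WT 2) and Hoxb4 (2.31 TPM in WT 1 and 1.504 in WT 2) were lower. Hlf and Mecom are known here only by reads, given above.

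Of the erythroid and megakaryocyte factors, the repressor Gfi1b had 147 TPM in WT 1 and 371 in WT 2, Zfpm1, the cofactor FOG-1 of Gata1, 133 TPM in WT 1 and 195 in WT 2, and Nfe2 94.02 TPM in WT 1 and 81.03 in WT 2. Gata2, which acts before Gata1, had 94.8 TPM in WT 1 and 57.8 in WT 2. Gata2 thus exceeded Gata1 in WT 1, with 94.8 against 50.9 TPM, and Gata1 exceeded Gata2 in WT 2, with 106 against 57.8 TPM. Bcl11a, a repressor of globin genes and a B cell factor, had 26.5 TPM in WT 1 and 43.3 in WT 2.

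Of the granulocyte and monocyte factors, Irf8 had 145 TPM in WT 1 and 104 in WT 2, Spi1, which encodes PU.1, 133 TPM in WT 1 and 90.8 in WT 2, and Klf4 52.5 TPM in WT 1 and 25.4 in WT 2. Cebpa, needed for the first granulocyte-monocyte progenitors, had 42.9 TPM in WT 1 and 22.7 in WT 2, Cebpe of later granulocytes 22.8 TPM in WT 1 and 10.9 in WT 2 and Cebpb of emergency granulopoiesis 15.9 TPM in WT 1 and 7.36 in WT 2. Gfi1, the granulocyte counterpart of Gfi1b, had 34.3 TPM in WT 1 and 12.2 in WT 2. Within this pair Gfi1 was more than 2-fold higher in WT 1 and Gfi1b more than 2-fold lower in WT 1. All 7 of these myeloid factors were higher in WT 1, against 45.0% of all genes.

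Of the lymphoid factors, Ikzf1 had 137 TPM in WT 1 and 258 in WT 2 and Tcf3 85.2 TPM in WT 1 and 126 in WT 2, but both are also used outside the lymphoid branch. For Ikzf1 and Myb the difference between libraries was smaller in CPM (log2 -0.32 and 0.38) than in TPM (-0.91 and 0.84), so the size of these 2 differences depends on the scale. Gata3 had 31.4 TPM in WT 1 and 6.85 in WT 2, Id2 13.97 TPM in WT 1 and 7.28 in WT 2, Tcf7 5.04 TPM in WT 1 and 1.48 in WT 2 and Tbx21 0.738 TPM in WT 1 and 0.283 in WT 2. The B cell factors Pax5 and Ebf1 were low, with 32 reads in WT 1 and 51 in WT 2 for Pax5 and 31 reads in WT 1 and 29 in WT 2 for Ebf1. Over the whole list of factors, 6 of the 30 were at least 2-fold higher in WT 1 (Gata3, Gfi1, Tcf7, Klf4, Cebpb and Cebpe) and 3 at least 2-fold lower in WT 1 (Gfi1b, Klf1 and Gata1). Over all genes these shares were 2.55% and 1.65%.

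**Figure D4:**
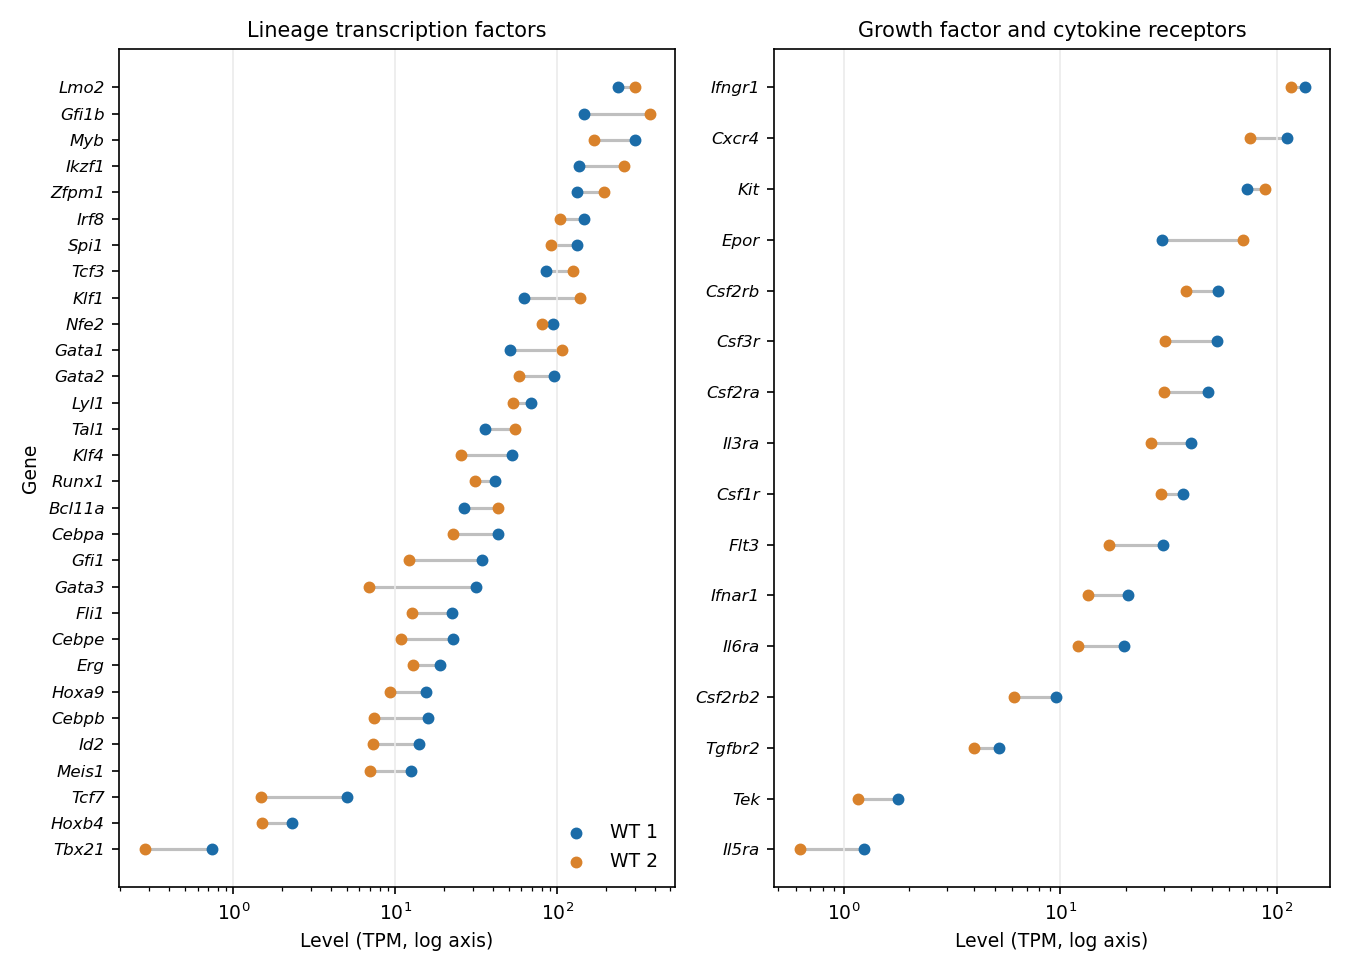
Levels of lineage transcription factors (left) and of the growth factor and cytokine receptors reported here (right) with settled TPM, on log axes, with a grey line joining WT 1 and WT 2. Gfi1b lies lower in WT 1 and Gfi1 higher in WT 1, and Epor lies at 29.4 TPM in WT 1 and 70.01 TPM in WT 2.

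Among the receptors of growth factors and cytokines, 1 averaged at least 100 TPM, and 16 of the 17 with settled TPM were detected in both libraries. Ifngr1, a chain of the interferon gamma receptor, led with 134 TPM in WT 1 and 116 in WT 2, followed by Cxcr4, the receptor that holds stem cells in the niche (111 TPM in WT 1 and 75.3 in WT 2), and Kit. Epor, the erythropoietin receptor, had 29.4 TPM in WT 1 and 70.01 in WT 2 and was the 1 of the 17 that differed 2-fold, a share near the 4.2% over all genes. Of the receptors of the granulocyte and monocyte branch, Csf2rb, the shared beta chain, had 53.5 TPM in WT 1 and 37.97 in WT 2, Csf3r for G-CSF 53.0 TPM in WT 1 and 30.3 in WT 2 and Csf2ra for GM-CSF 48.1 TPM in WT 1 and 30.1 in WT 2. Il3ra had 40.04 TPM in WT 1 and 26.3 in WT 2 and Csf1r 36.9 TPM in WT 1 and 29.1 in WT 2.

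Flt3, the receptor of multipotent and lymphoid-primed progenitors, had 29.6 TPM in WT 1 and 16.8 in WT 2, and Il6ra 19.7 TPM in WT 1 and 12.1 in WT 2. Ifnar1 had 20.5 TPM in WT 1 and 13.4 in WT 2, Csf2rb2 9.52 TPM in WT 1 and 6.09 in WT 2, Tgfbr2 5.19 TPM in WT 1 and 3.99 in WT 2, Tek 1.78 TPM in WT 1 and 1.17 in WT 2 and Il5ra 1.24 TPM in WT 1 and 0.627 in WT 2. The other 3 receptors are known by reads only: Il6st had 87.99 CPM in WT 1 and 73.1 in WT 2, Tgfbr1 33.8 CPM in WT 1 and 27.8 in WT 2 and Il7r, the receptor of early lymphoid cells, 26.4 CPM in WT 1 and 7.34 in WT 2. Of the 17 receptors, 15 were higher in WT 1, against 45.0% of all genes, and Kit and Epor were lower.

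Lymphoid genes other than the antibody genes were mostly low. The early lymphoid list was led by Ikzf1, with the terminal transferase Dntt at 19.5 TPM in WT 1 and 19.5 in WT 2 and Satb1 at 14.7 TPM in WT 1 and 11.1 in WT 2, while Ikzf3, Blk and Rag2 were below 10 TPM in both libraries. In the pro-B and pre-B list Tcf3 led, Cd79b had 18.2 TPM in WT 1 and 12.3 in WT 2 and Cd79a 11.6 TPM in WT 1 and 4.07 in WT 2, and the surrogate light chain genes Igll1 (16 reads in WT 1 and 16 in WT 2) and Vpreb1 (8 reads in WT 1 and 12 in WT 2) were low, as was Vpreb3, with 18 reads in WT 1 and 18 in WT 2. T cell genes summed to 18.7 TPM in WT 1 and 7.28 TPM in WT 2, led by Lck, Cd3g, Cd2 and Cd247, then Cd8a and Bcl11b, and natural killer genes to 38.4 TPM in WT 1 and 13.8 TPM in WT 2, led by Klrk1, Klrd1, Gzmb, Klrb1c, Gzma and Ncr1. All 9 natural killer genes and all 6 T cell genes with enough reads were higher in WT 1, against 45.0% of all genes. These values lie near the floor: 1 of 7 settled T cell genes and 5 of 9 natural killer genes were detected in both libraries.

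Antibody genes were in contrast very high. In the mature B and plasma cell list, Igkc led, and Ighm, the heavy chain of IgM, had 5046 TPM in WT 1 and 628 in WT 2 and Jchain, which joins IgM and IgA units, 1267 TPM in WT 1 and 282 in WT 2. Xbp1, the secretory factor of plasma cells, had 125 TPM in WT 1 and 63.01 in WT 2, Mzb1 24.7 TPM in WT 1 and 5.24 in WT 2 and the B cell receptor Cd22 7.26 TPM in WT 1 and 4.72 in WT 2. The list summed to 27814 TPM in WT 1 and 4815 TPM in WT 2, the widest ratio between the libraries of any list. Some markers of resting B cells were low and nearly level. Ms4a1, the CD20 gene, had 42 reads in WT 1 and 31 in WT 2. Ighd had 62 reads in WT 1 and 66 in WT 2, and Fcer2a 17 reads in WT 1 and 22 in WT 2. Other B cell genes, Cd22, Cd79a and Cd79b, were higher in WT 1. With TMM scaling, 9 of the 10 members of the mature B and plasma cell list with enough reads were higher in WT 1. Prdm1, the factor of antibody-secreting cells, had 327 reads in WT 1 and 54 in WT 2, and the plasma cell surface marker Sdc1 573 reads in WT 1 and 208 in WT 2. Prdm1, Sdc1, Ms4a1, Ighd and Fcer2a were named after their values were seen.

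The list of macrophage genes summed to 119.6 TPM in WT 1 and 269 TPM in WT 2. Of 13 members, 12 were lower in WT 1, against 5838 of all 10614 genes, and 6 of them by 2-fold (1.65% of all genes). It was led by the iron exporter Slc40a1 (74.2 TPM in WT 1 and 191 in WT 2), which red cell precursors also make, then Vcam1 (18.1 TPM in WT 1 and 12.3 in WT 2), Hmox1, C1qa, C1qc and Cd163. Stromal and endothelial genes were low, with 41.5 TPM in WT 1 and 37.97 TPM in WT 2 in sum and 4 of 16 settled members detected in both libraries. Pecam1, which blood cells also make, led with 30.98 TPM in WT 1 and 23.1 in WT 2, and Bglap, Pdgfrb, Col1a2, Sparc and Emcn were below 10 TPM. Adipoq had 0 reads in both libraries, which allows up to 0.126 CPM in WT 1 and 0.134 in WT 2 (3 reads of each library's total, counting error only). The defining endothelial gene Cdh5 had 21 reads in WT 1 and 8 in WT 2.

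Several targets of the depletion antibodies could be read from the table. Cd5, a T cell antigen, had 18 reads in WT 1 and 5 in WT 2, and Ly6g, part of the Gr-1 antigen, is given above. Itgam, the CD11b gene, had 13.5 TPM in WT 1 and 11.2 in WT 2, but 68.7% of its exonic bases are shared with exons of other genes. Ptprc, the pan-leukocyte gene whose B220 form is the target, had 59.3 TPM in WT 1 and 36.6 in WT 2, which does not tell the forms apart. Ly6c2, which the Gr-1 antibody also binds, ranked 155, and Ly6c1 was not settled. Messenger RNA does not measure surface protein, and no flow cytometry was used here.

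Genes of replication and mitosis were abundant in both libraries and lower in WT 1 throughout. The replication list summed to 2129 TPM in WT 1 and 2865 TPM in WT 2, led by the sliding clamp Pcna (341 TPM in WT 1 and 439.9 in WT 2), the helicase subunits Mcm2 (257 TPM in WT 1 and 373 in WT 2), Mcm6 and Mcm7, Mcm3 and the ribonucleotide reductase subunit Rrm2. The mitosis list summed to 1592 TPM in WT 1 and 2196 TPM in WT 2, led by Cdk1 (248 TPM in WT 1 and 348 in WT 2), Top2a (228 TPM in WT 1 and 285 in WT 2), Cenpa, Birc5, Ccna2 and Mki67. All 15 replication and all 16 mitosis genes with settled TPM were lower in WT 1, with median log2 differences of -0.39 and -0.43, and none passed 2-fold. Of all 10614 genes with at least 40 reads, 5838 were lower in WT 1 by any amount, and the median was -0.04. The ratio of the replication to the mitosis sum was 1.34 in WT 1 and 1.304 in WT 2.

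Among the kinases and inhibitors of the G1 phase, Cdk4 had 692 TPM in WT 1 and 799 in WT 2. Its partner cyclin Ccnd3 had 286 TPM in WT 1 and 337 in WT 2. The other D cyclins are known by reads only: Ccnd2 had 170 CPM in WT 1 and 116 in WT 2. Ccnd1 had 28.5 CPM in WT 1 and 28.0 in WT 2. Cdk2 had 65.7 TPM in WT 1 and 71.7 in WT 2 and Cdk6 56.3 TPM in WT 1 and 50.1 in WT 2. The inhibitor with the highest level was Cdkn2c, p18 (22.2 TPM in WT 1 and 24.8 in WT 2), followed by Cdkn2d, p19 (21.99 TPM in WT 1 and 17.9 in WT 2), and the quiescence inhibitor Cdkn1c, p57, had 9 reads in WT 1 and 14 in WT 2. The senescence locus was at the floor, with 1 read for Cdkn2a and 1 for Cdkn2b in WT 1 and 0 reads for each in WT 2. Ccnd1, Ccnd2, Cdkn1c, Cdkn2a and Cdkn2b were named after their values were seen.

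Cyba, the gene that is deleted in the other group of the study, was present in both libraries, with 96.6 TPM in WT 1 and 68.1 in WT 2, as their wild type label requires. The NADPH oxidase genes with the highest levels were the small GTPases Rac2 (1400.3 TPM in WT 1 and 998 in WT 2) and Rac1 (239 TPM in WT 1 and 222 in WT 2, with 51.4% of its exonic bases shared with other genes). The cytosolic subunits Ncf4 (116 TPM in WT 1 and 63.8 in WT 2) and Ncf1 (84.9 TPM in WT 1 and 53.7 in WT 2) lay close to Cyba, and Cybb, the catalytic subunit of phagocytes, had 86.6 CPM in WT 1 and 75.5 in WT 2. Nox1 and Nox4, the catalytic subunits of other tissues, were below 1 TPM in both libraries. Nox3, Duox1 and Duox2 were not analysed here.

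Between the libraries, most genes were close: 85.5% of the 10614 genes with at least 40 reads lay within 1.5-fold. Of the 10614, 446 (4.2%) differed at least 2-fold. The repair weighed readings partly by agreement between libraries, so some of this closeness may have been built in. Without that tie, 457 genes differed at least 2-fold. That repair settled TPM for 18049 genes in place of 18986, so 457 and 446 are counts over different sets of genes. They do not show how the share changed. For the 7059 genes of at least 10 TPM, the median SD between libraries was 12.1% of the mean. Between single lanes the median SD was 7.84% in WT 1 and 8.06% in WT 2. Library values are means of 4 lanes, so lane noise in them is smaller than these lane SDs. Of the 271 genes at least 2-fold higher in WT 1, 92 were immunoglobulin genes, and of the 175 lower in WT 1, 8 were. Immunoglobulin genes were 179 of the 18986 settled genes and 142 of the 9566 detected in both libraries. All 271 and all 175 kept their direction by CPM, and 245 and 144 of them also passed 2-fold by CPM. With TMM or DESeq2 scaling of the reads, all 21 granulocyte-monocyte progenitor genes were higher in WT 1. So scaled, 38 of 39 erythroid genes, which include 1 with no settled TPM, were lower in WT 1, 25 of them by 2-fold with TMM and 21 with DESeq2 scaling.

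The 10 genes with the largest ratio in favour of WT 1, among those with at least 10 TPM and 100 reads, were all immunoglobulin variable segments. Igkv14-130 had 426 TPM in WT 1 and 2.997 in WT 2, Ighv8-8 1159 TPM in WT 1 and 14.5 in WT 2, and Ighv11-2, a segment known from B-1 cells, 448 TPM in WT 1 and 9.47 in WT 2. Igkv5-39, Igkv14-126, Igkv9-124, Ighv6-3, Ighv5-16, Igkv8-27 and Ighv14-4 made up the rest, with log2 differences from 4.03 to 5.28. Variable segments resemble each other, so reads may be split between them. The 10 genes that were lowest in WT 1 relative to WT 2 were of several kinds. The neutrophil genes Ltf, Retnlg (19.6 TPM in WT 1 and 106 in WT 2), Lcn2 (30.1 TPM in WT 1 and 112 in WT 2) and Ngp were among them, as was the erythroid gene Tspo2 (47.9 TPM in WT 1 and 160.02 in WT 2). The segments Ighv1-54 (27.6 TPM in WT 1 and 143 in WT 2) and Igkv2-109 (46.3 TPM in WT 1 and 181 in WT 2) were also lower in WT 1, and Nxpe2 (40.2 TPM in WT 1 and 136 in WT 2), Gstp3 (5.38 TPM in WT 1 and 20.4 in WT 2) and Plpp1 (5.15 TPM in WT 1 and 17.1 in WT 2) completed the set.

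**Figure D5:**
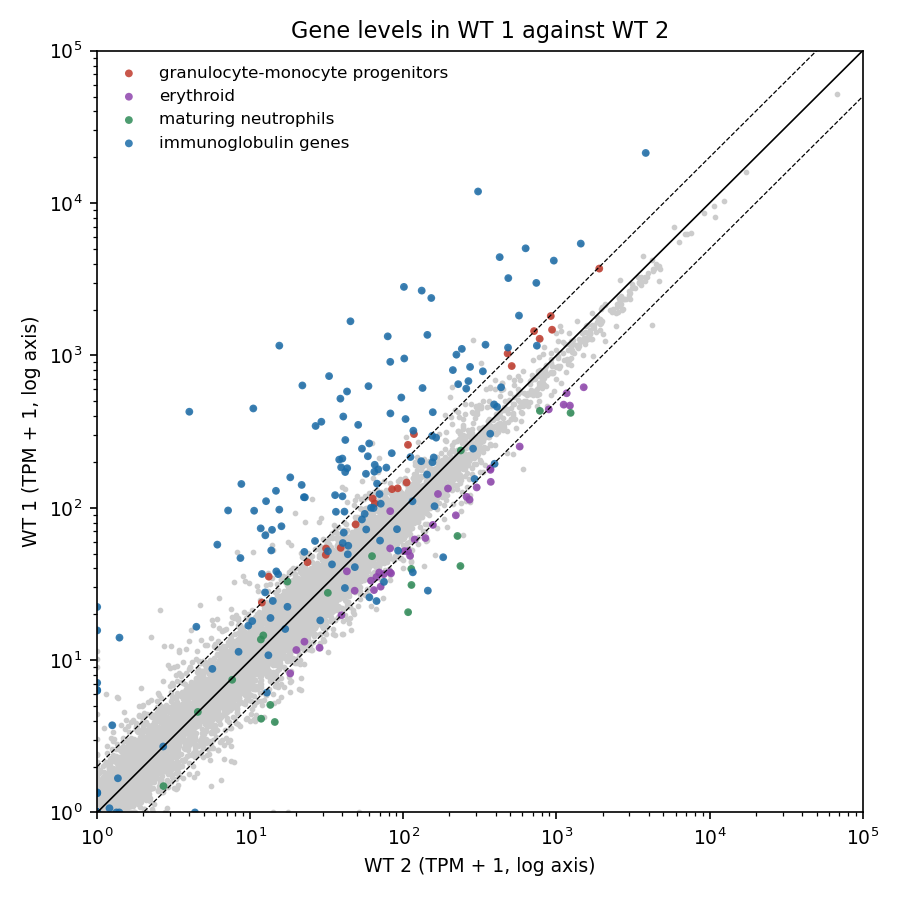
TPM + 1 of each settled gene in WT 1 (vertical) against WT 2 (horizontal), on log axes, with the line of equality and dashed lines at 2-fold. Many immunoglobulin genes lie far above the upper dashed line, granulocyte-monocyte progenitor genes lie above equality, and the erythroid genes other than Nfe2 and most maturing neutrophil genes lie below it.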

How the data were processed

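For each library the authors deposited estimated counts and TPM per gene, in 4 lanes per the file headers. Salmon, DESeq2 and GRCm38 appear in the submitters' processing notes; versions, annotation and strand setting are not given in the sources used here. Per the labels' protocols, libraries were made with the TruSeq RNA kit v2, which does not mark strand.

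Numbers with 3 or more decimals had lost their decimal point: 24.9% of the count values and 53.01% of the TPM values had more than 1 possible reading. Readings were weighed per gene by the agreement of lanes, of TPM with counts through the gene's length, and of all 4 libraries of the series with each other. A gene was settled if its expected error in each library was at most 5%, or at most 1 read or 0.05 TPM where that was larger. For genes near the floor the error can therefore be well above 5% of the value. Repaired lanes summed to 990679 to 996628 TPM, and settled genes held 96.3% of that sum in WT 1 and 96.4% in WT 2. Of the 3069 genes settled for reads only, 2234 had at least 40 reads, so ranks leave out some well expressed genes. The repair was tested on simulated data: of 21874 genes, 98.6% were settled for reads, 28 of them wrongly, and 89.4% for reads and TPM. In a second simulation, 200 genes differed by 2-fold or more in WT 1 alone, and 198 were settled for reads, 3 of them wrongly. Both simulations took only genes already settled for reads, with repaired values as the truth and 1 length per gene. Their rates therefore do not measure the error over all deposited genes.

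Lanes were summed for reads and averaged for TPM. Ratios are log2 of (TPM + 1) in WT 1 over (TPM + 1) in WT 2 for genes with at least 40 reads summed. Symbols came from GENCODE vM21, which matched 22384 IDs. Gene classes were set by symbol and biotype. The report names the 8 markers, the 20 highest genes, the 20 highest protein-coding genes outside 4 classes, up to 6 highest members of each list and any member at 0 reads, all factors and receptors, and 10 genes per direction between the libraries; a few genes under this rule are not reported here. Other genes named, such as Ly6g, Cdh5, Cybb, Nox1, Nox4 and the embryonic globins, were chosen after their values were seen. The members and the 25 lists (369 genes, 365 in the table) were chosen with earlier results of these data known. Alternatives were other repairs, thresholds, pseudocounts, filters and scalings (edgeR 4.0.16 TMM, DESeq2 1.42.0 size factors). Python 3.11.15, numpy 2.4.6, pandas 2.3.3 and R 4.3.3 were used.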

Additional observations from a re-analysis of the deposited data

How the results depend on the processing

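No paired analysis was possible because the 2 libraries are 1 group and no result comes from a test. The shares of the 10, 100 and 1000 highest genes, 16.1%, 41.2% and 74.1% on average over both libraries, became 16.7%, 42.8% and 76.4% when libraries were not tied in the repair and 16.6%, 42.4% and 75.7% when the repair used the wild type libraries only, since fewer genes were then settled. They became 9.94%, 35.3% and 70.2% without mitochondrially encoded and immunoglobulin genes, and 10.2%, 35.3% and 68.8% without genes under 500 exonic bases, an alternative chosen after seeing the data. The 446 genes that differed 2-fold between the libraries became 718 with a pseudocount of 0.1, 1541 at 1.5-fold and 78 at 4-fold, and 617 and 632 by CPM with TMM and DESeq2 scaling. Those 2 counts cover 12538 genes, since reads were settled for more genes than TPM, and split into 400 higher and 217 lower in WT 1 and 428 higher and 204 lower in WT 1. The 9566 genes detected in both libraries became 8672 with no tie and 8785 from the wild type libraries only, 7952 at 5 TPM and 13156 at 10 reads. Leaving out a library gave 9748 to 9870 detected genes, 15.8% to 16.3% in the 10 highest genes, 40.97% to 41.4% in the 100 highest, 73.9% to 74.4% in the 1000 highest, and 11 to 13 lists that summed to at least 1000 TPM. No marker list changed the direction of its median difference between the libraries under TMM or DESeq2 scaling, except the stroma and endothelium and the cyclin-dependent kinase regulator lists, whose medians were near 0, and among single members Blk, Cox6a2, Cxcr2, Ighd and Vwf changed sign. Of the 18009 genes settled with and without a tie between libraries, 0 differed by over 5%. TPM was settled for 18986 genes with the tie and for 18049 without it. Genes whose reading hinges on the tie drop out of this comparison, so it cannot show what the tie did to them. Of the 25 list sums, 14 moved by more than the SD between libraries with CPM in place of TPM, 13 without mitochondrially encoded and immunoglobulin genes, and 2 or 3 under the other repairs and with 1 length per gene.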

Other observations

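Immediate early genes, which cells switch on quickly after a stimulus, were a group of high level that the lists above did not hold, except Egr1 and Klf4. The list was written after the values were seen, so its direction is a description of these 2 libraries. Fos led with 885 TPM in WT 1 and 319.9 in WT 2, rank 246, followed by Jun with 289.7 TPM in WT 1 and 103 in WT 2, Fosb with 264 TPM in WT 1 and 61.8 in WT 2 and the phosphatase gene Dusp1 with 213 TPM in WT 1 and 68.5 in WT 2. Of 22 members with enough reads, 21 were higher in WT 1 and 16 passed 2-fold, beside 45.0% and 2.55% of all genes. The sum was 2912 TPM in WT 1 and 1117 TPM in WT 2. The exception was Myc, with 135 TPM in WT 1 and 143 in WT 2. Atf3 had 13.1 TPM in WT 1 and 1.23 in WT 2, Klf6 113 TPM in WT 1 and 24.2 in WT 2 and Klf2 91.2 TPM in WT 1 and 18.7 in WT 2.

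Some gene families were also taken whole by their names, chosen after seeing the data. Of 27 Hox genes, 25 had settled TPM, and 4 of these were detected in both libraries. They were Hoxa9, Hoxa7 (7.45 TPM in WT 1 and 5.603 in WT 2), Hoxb4 and Hoxa5 (1.88 TPM in WT 1 and 1.12 in WT 2). Hoxb3 (78 reads in WT 1 and 57 in WT 2) and Hoxa3 (49 reads in WT 1 and 29 in WT 2) had no settled TPM. Of the peroxiredoxins, which remove peroxides, all 6 were detected, and Prdx2, the red cell form, was highest, with 468 TPM in WT 1 and 867 in WT 2. Of the heavy chain constant genes, Igha had 5420.4 TPM in WT 1 and 1441 in WT 2.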
